A study of Mus musculus with 15 samples.

Results

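Entry into and passage through mitosis depends on a set of genes whose transcripts build up in G2, and 45 of them were followed by RNA sequencing in mouse cancer cells that carried different forms of Malt1. The genes were taken by symbol from a list of cyclins, mitotic kinases, kinesins, checkpoint, centromere and cytokinesis genes. All 45 were found among the 55571 gene rows of the count table, and 44 passed a filter on low counts and were tested. Kif11, the kinesin that pushes spindle poles apart, was the exception, with 2 counts over all 15 libraries.

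The cells were E0771, a mouse mammary carcinoma line, grown without T cells per the series title. The 5 groups of 3 libraries each expressed a vector control (Vector), wild-type Malt1 (Malt1_WT), a Malt1 mutant that the labels name PD (Malt1_PD), or Malt1 with V87R (Malt1_V87R) or L88D (Malt1_L88D). MALT1 is a scaffold and a protease that works with BCL10 upstream of NF-kB. The values of Malt1_PD are in columns named for a cysteine substitution, and were given to that group because it alone had no column of its own name. The promoter of the constructs, and whether each line is a clone or a pool, are not stated in the sources at hand. Nor do the sources say if the 3 libraries of a group come from independent cultures. The p-values therefore measure the spread between libraries, which may be technical.

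Library totals lay between 15471746 and 21458457 counts. Levels are given as CPM, counts divided by the library total and multiplied by 1e+06, with totals scaled by the trimmed mean of M-values (TMM), and ± after a mean CPM is the SD of 3 libraries. Malt1 itself stood at 26.4, 30.2 and 27.8 CPM in the vector libraries. It stood at 207, 193 and 205 CPM in Malt1_WT and 259.7, 247 and 243 CPM in Malt1_PD. The Malt1_V87R libraries held 279, 279 and 281 CPM of Malt1, and those of Malt1_L88D held 258, 245 and 251 CPM, so every construct library was above every vector library. Malt1 was 7.20-fold higher in Malt1_WT than in the vector (edgeR adjusted p = 7.5e-27), and it was 1.24-fold higher in Malt1_L88D than in Malt1_WT (edgeR adjusted p = 3.5e-07). Of the mammary epithelial markers, Krt8 stood at 117 ± 8.62 CPM in the vector libraries and Epcam at 9.74 ± 1.16, while Krt18, Cdh1 and Krt14 were below 1 CPM there and Krt5 had 2 counts in all libraries together.

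A cell enters mitosis when cyclin B and its partner CDK1 become active, after which polo-like and Aurora kinases, kinesin motors and kinetochores build the spindle and attach chromosomes to it. The spindle checkpoint holds back the anaphase-promoting complex until every chromosome is attached, and then cyclin B and securin are destroyed and the cell divides. Transcripts of these genes are low in G1 and rise towards mitosis, largely through promoters that hold CCAAT boxes bound by NF-Y and a cell cycle genes homology region (CHR), through which the DREAM complex represses them and B-MYB and FOXM1 activate them. In bulk RNA, a lower level can mean fewer cells in G2 and mitosis or less RNA in each such cell, and these cannot be told apart.

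The members shared sequence features that played no part in their choice. In the RefSeq promoter table (GRCm38.p6, 250 bases before each start and 50 from it, 300 in all), 37 of the 45 members matched, with 39 promoters. Ccna2, Aurkb, Cdc25c, Kif20a, Incenp, Tpx2, Dlgap5 and Foxm1 had no entry. For 26 of the 39 promoters the first 30 bases from the start were found in a GENCODE transcript of the gene. For the rest, Kif2c among them, they were not, so the place of the start is less certain. Both strands were searched for the CHR, TTTGAA, for the NF-Y box, CCAAT, and for the E2F motifs TTCCCGC or TTGGCGC or TTCGCGC or TTGCCGC. The CHR was found in 29 of 39 member promoters (74.4%), against 17.9% of all 32851 promoters of the same length. CCAAT was found in 31 (79.5%), against 37.4% of all, and an E2F motif in 6 (15.4%), against 9.57%. The promoters shown next run from 120 bases before the start to 30 from it, on the strand of the gene, and were chosen to show the common layout and, with Bub1, the member that changed least in Malt1_WT. CHR and CCAAT matches are in capitals on either strand, so that TTCAAA and ATTGG are the same motifs read from the other strand.
Cdk1: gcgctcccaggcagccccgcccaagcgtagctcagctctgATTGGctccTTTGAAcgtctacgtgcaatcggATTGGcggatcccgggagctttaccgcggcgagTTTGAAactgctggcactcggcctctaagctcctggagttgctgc
Ccnb2: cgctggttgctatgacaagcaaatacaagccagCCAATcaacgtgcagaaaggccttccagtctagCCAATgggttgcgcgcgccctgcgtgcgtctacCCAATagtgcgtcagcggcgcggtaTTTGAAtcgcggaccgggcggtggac
Cdc20: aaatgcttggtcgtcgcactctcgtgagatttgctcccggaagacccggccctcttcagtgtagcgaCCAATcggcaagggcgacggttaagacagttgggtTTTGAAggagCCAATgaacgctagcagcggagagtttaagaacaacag
Ube2c: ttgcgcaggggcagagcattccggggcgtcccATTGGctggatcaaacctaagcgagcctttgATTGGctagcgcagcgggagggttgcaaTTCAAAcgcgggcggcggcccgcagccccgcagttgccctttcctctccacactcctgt
Kif4: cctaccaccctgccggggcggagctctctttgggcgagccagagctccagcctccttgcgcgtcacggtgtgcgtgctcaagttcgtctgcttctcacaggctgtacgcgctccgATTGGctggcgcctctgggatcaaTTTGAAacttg
Cdca8: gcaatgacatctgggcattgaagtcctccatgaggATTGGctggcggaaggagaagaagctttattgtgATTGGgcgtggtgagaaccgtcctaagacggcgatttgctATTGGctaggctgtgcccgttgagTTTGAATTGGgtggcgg
Prc1: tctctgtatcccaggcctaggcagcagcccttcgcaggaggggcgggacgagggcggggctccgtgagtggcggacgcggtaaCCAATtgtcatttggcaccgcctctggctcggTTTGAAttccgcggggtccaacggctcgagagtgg
Top2a: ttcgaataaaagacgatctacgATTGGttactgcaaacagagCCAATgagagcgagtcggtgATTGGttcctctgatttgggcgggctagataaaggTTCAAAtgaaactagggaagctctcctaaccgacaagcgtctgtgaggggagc
Bub1: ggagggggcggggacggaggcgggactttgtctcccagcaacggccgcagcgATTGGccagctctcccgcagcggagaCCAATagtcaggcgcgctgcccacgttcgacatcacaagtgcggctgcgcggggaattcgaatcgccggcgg

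These stretches lie in GRCm38.p6 for Cdk1 at chr10:69352883-69353032 (minus strand), Ccnb2 at chr9:70421525-70421674 (minus strand), Cdc20 at chr4:118437314-118437463 (minus strand), Ube2c at chr2:164769809-164769958 (plus strand) and Kif4 at chrX:100625945-100626094 (plus strand). The others lie for Cdca8 at chr4:124936888-124937037 (minus strand), Prc1 at chr7:80294331-80294480 (plus strand), Top2a at chr11:99024160-99024309 (minus strand) and Bub1 at chr2:127831830-127831979 (minus strand). Each except Bub1 holds TTTGAA near the start with at least 1 CCAAT box before it, and Ccnb2 holds 3 evenly spaced CCAAT boxes. The CHR was searched only in this form. Bub1 holds TTCGAA, which differs from it by 1 base and was not counted, so Bub1 is not shown to lack a CHR. In Cdca8 the CHR and the last CCAAT match share bases. A CCAAT box within 60 bases before a CHR was found in 22 of 39 member promoters (56.4%), against 1.92% of all promoters, and a CHR between 30 bases before the start and the end of the window in 24 (61.5%), against 3.83%. These spacings were chosen after the sequences had been seen. Of 34 promoters of a list of S-phase genes, 11.8% held the CHR and 64.7% an E2F motif. A match is a run of letters and does not show that a factor binds there.

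**Figure D1:**
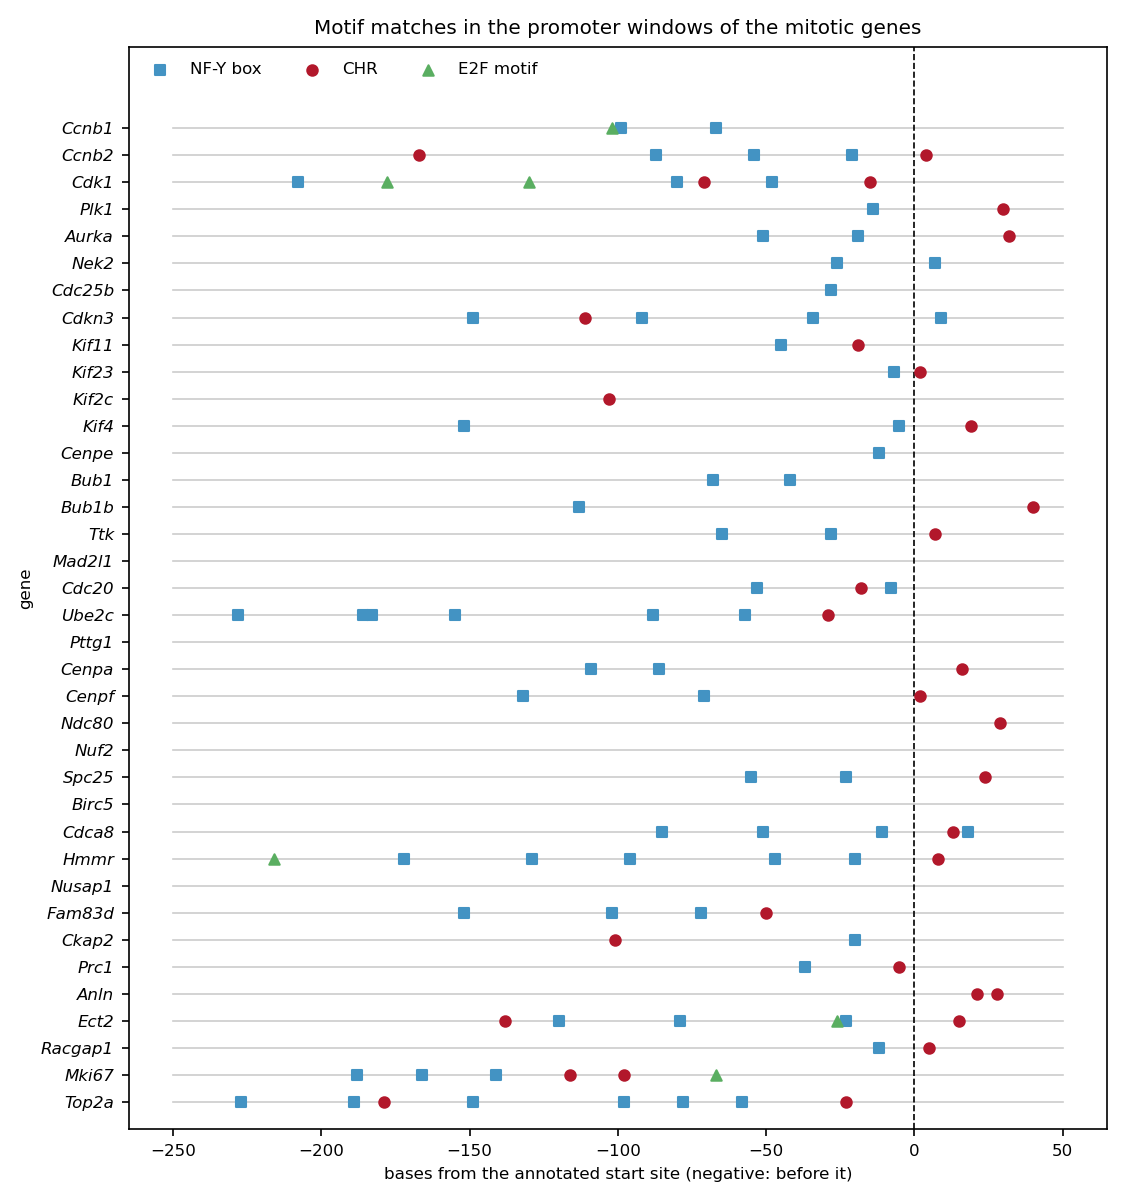
Motif matches in the promoter windows of the mitotic genes. Each row is 1 promoter of each of the 37 matched genes, the horizontal axis is the distance in bases from the annotated start site, and markers show NF-Y boxes, CHR and E2F motif matches on either strand; CHR matches gather around the start site, with NF-Y boxes before them.

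Mitotic transcripts were lowest with wild-type Malt1, next lowest with Malt1_PD, and nearest to the vector level, though mostly below it, with either substitution mutant. Summed over the members, they made up 7245 ± 121 CPM in the vector libraries and 2484 ± 23.3 CPM in Malt1_WT (n = 3 each). The Malt1_PD libraries summed to 3559 ± 86.1 CPM, and those of Malt1_V87R and Malt1_L88D to 6463 ± 118 and 6216 ± 128 CPM (n = 3 each). This order held gene by gene. The mean of Malt1_WT was the lowest of the 5 groups for 44 of 44 members tested (31.8% of all genes tested) and that of Malt1_PD the second lowest for 44 of 44 (27.5%). The vector mean was the highest for 43 of 44 (27.0%), the exception being Top2a. For 42 of 44 members each Malt1_WT library was below every library of the other 4 groups, as it was for 9.36% of all genes tested.

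**Figure D2:**
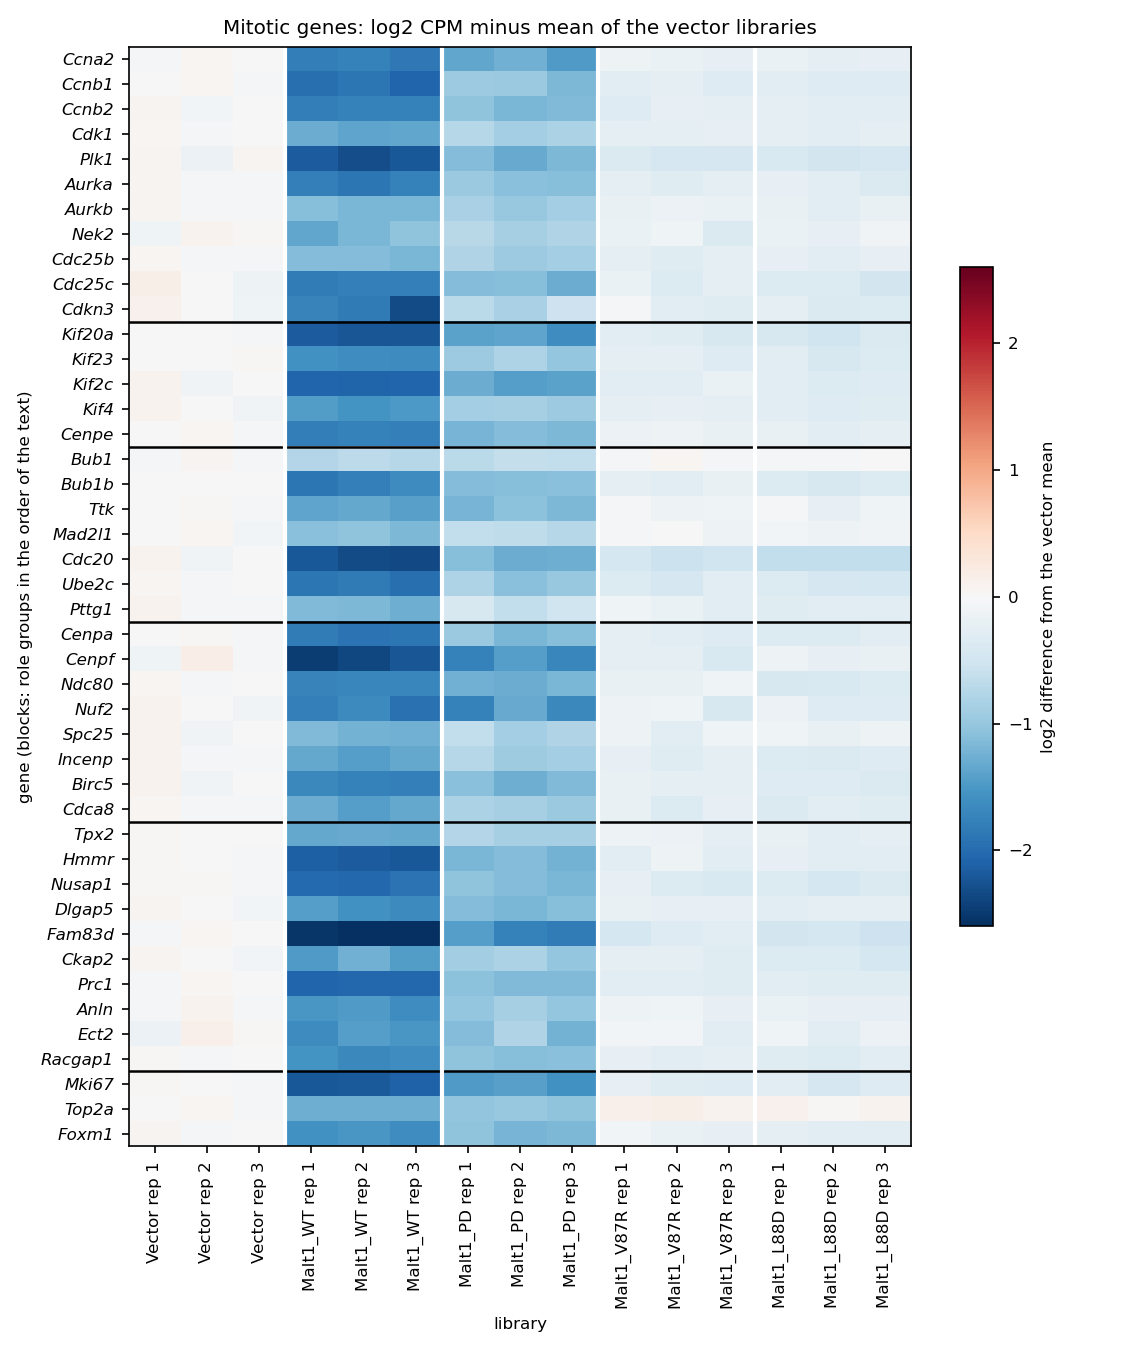
Heat map of the 44 tested mitotic genes (rows, in blocks by role) in the 15 libraries (columns); colour gives log2 CPM minus the mean of the vector libraries. The Malt1_WT libraries are the lowest for 42 of 44 genes (Bub1 and Nuf2 overlap with Malt1_PD), and Malt1_PD libraries are mostly intermediate. Malt1_V87R and Malt1_L88D libraries lie nearest to the vector, mostly below it.

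The comparisons ask how each form of Malt1 altered these transcripts. All were read from 1 edgeR quasi-likelihood fit of the 15 libraries with Benjamini-Hochberg adjustment over 14571 genes, and a gene was called at an adjusted p below 0.05. Comparisons with the vector share the vector libraries, and those with Malt1_WT share the Malt1_WT libraries, so their counts are not independent. Against the vector, 44 of 44 members fell in Malt1_WT, where 27.7% of all genes were called lower, with a median log2 fold change of -1.72 against -0.01 over all genes tested. In Malt1_PD 44 of 44 members fell (background 22.0%), with a median of -1.08. In Malt1_V87R 35 fell (background 4.70%) and Top2a rose (background 7.01%), with a median of -0.24. In Malt1_L88D 35 fell (background 8.43%) and none rose (background 8.96%; DESeq2 and limma-voom also called 0 higher), with a median of -0.30. At an unadjusted p under 0.05 the counts in either direction were 40 of 44 for each substitution mutant, against 23.9% of all genes for Malt1_V87R and 29.9% for Malt1_L88D. Calls in Malt1_V87R of Aurkb, Ccna2, Cdc25c, Cenpe, Pttg1, Ndc80, Dlgap5, Anln, Foxm1 and Top2a, and in Malt1_L88D of Cdkn3, were each lost when at least 1 library was left out.

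Between constructs, 42 of 44 members were higher in Malt1_PD than in Malt1_WT, where 12.6% of all genes were called higher, with a median log2 fold change of 0.59. All 44 tested were higher in Malt1_V87R than in Malt1_WT (background 24.9%, median 1.51) and in Malt1_L88D than in Malt1_WT (background 22.8%, median 1.36). The same count of 44 was reached against Malt1_PD by Malt1_V87R (background 20.4%, median 0.80) and by Malt1_L88D (background 20.0%, median 0.76). Summed markers of macrophages and dendritic cells were higher in Malt1_WT and Malt1_PD than in the vector. They lay between 28.4 and 30.6 CPM in the vector libraries, 57.4 and 65.7 CPM in Malt1_WT and 63.6 and 67.6 CPM in Malt1_PD. The sums lay between 26.2 and 30.4 CPM in Malt1_V87R and 30.9 and 51.9 CPM in Malt1_L88D. Single markers differed in direction. Mean CPM in the vector and in Malt1_WT was 12.0 and 25.2 for Cd68 and 8.03 and 23.4 for Cd14. It was 5.66 and 4.63 for Lyz2 and 0.072 and 0.041 for C1qb. In the Malt1_L88D libraries Lyz2 stood at 5.49, 19.5 and 16.2 CPM. Of the 7 markers tested, 4 were called higher in Malt1_WT than in the vector and 7 in Malt1_PD. Among all 14571 genes tested, 3958 (27.2%) were called higher in Malt1_WT than in the vector, and 3318 of the same 14571 in Malt1_PD. None of the 11 markers listed was at 0 throughout, Ptprc, the pan-leukocyte marker, had 23 counts over 15 libraries, and the part of these markers in the result was not tested. The summed T and NK cell markers, 2 of 9 of them at 0, lay between 1.52 and 2.04 CPM in the vector libraries and between 2.89 and 4.20 CPM in Malt1_WT. They lay between 2.37 and 3.15 CPM in Malt1_PD, 1.72 and 2.46 CPM in Malt1_V87R and 1.77 and 2.62 CPM in Malt1_L88D. Only Lck of these markers passed the filter, with a mean of 1.64 CPM in the vector and 2.79 CPM in Malt1_WT. The sums thus rest mostly on 1 gene. The 5 endothelial markers, none at 0, summed to 18.1 to 19.5 CPM in the vector libraries, 21.1 to 23.8 CPM in Malt1_WT and 22.0 to 23.8 CPM in Malt1_PD. In Malt1_V87R their sum was 14.7 to 15.7 CPM and in Malt1_L88D 15.1 to 17.3 CPM. The 7 fibroblast markers summed to 271 to 295 CPM in the vector libraries, 277 to 280.2 CPM in Malt1_WT and 317 to 332 CPM in Malt1_PD. The part of these markers too was not tested.

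**Figure D3:**
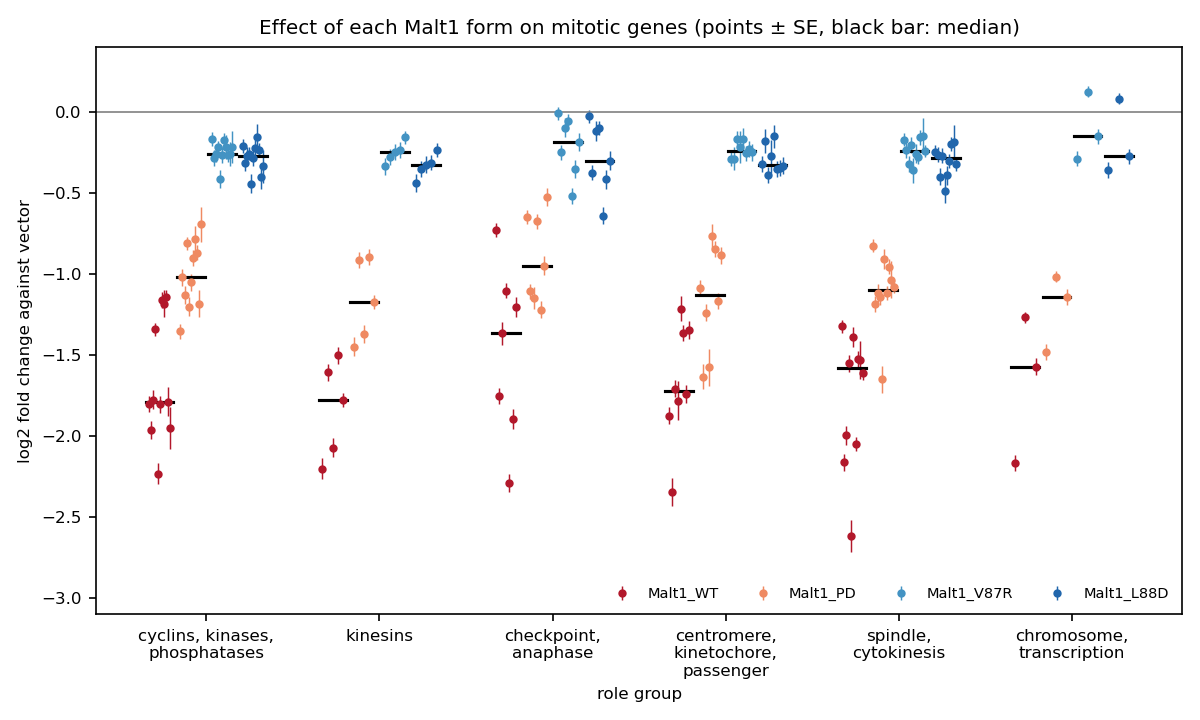
Log2 fold change against the vector (vertical axis, point ± SE) of each tested mitotic gene in each Malt1 form, grouped by role (horizontal axis), with a black bar at the median of each form and group. In every role group the Malt1_WT median lies lowest, the Malt1_PD median next, and those of Malt1_V87R and Malt1_L88D nearest 0. In some groups points of different genes overlap between forms.

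Among the cyclins, kinases and phosphatases that drive entry into mitosis, 11 of 11 fell in Malt1_WT with a median log2 fold change of -1.79, and 11 of 11 fell in Malt1_PD with a median of -1.02. In the tests named here and below, ± after a log2 fold change is the standard error (SE). The shares of all genes called lower in each comparison with the vector, given above, apply to the counts of each role group. Ccna2 (chr3:36564865-36572150, minus strand) encodes cyclin A2, which acts in S phase and G2. Ccna2 stood at 258, 274 and 264 CPM in the vector libraries, 75.8, 79.0 and 73.4 in Malt1_WT and 104, 112 and 96.2 in Malt1_PD. In Malt1_V87R it was at 244, 236 and 229 CPM, and in Malt1_L88D at 235, 224 and 229. The Malt1_WT libraries were the lowest and did not overlap with Malt1_PD, and both were far below those of the vector, which did not overlap with those of the substitution mutants. The log2 fold change was -1.80 ± 0.048 in Malt1_WT (edgeR adjusted p = 1.2e-22) and -1.35 ± 0.046 in Malt1_PD (edgeR adjusted p = 9.0e-20). It was -0.17 ± 0.044 in Malt1_V87R (edgeR adjusted p = 0.011, not called without Malt1_V87R replicate 3) and -0.21 ± 0.044 in Malt1_L88D (edgeR adjusted p = 0.0011).

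Cdk1 (chr10:69335146-69352938, minus strand) encodes the kinase that cyclins A and B activate. The vector libraries had 259, 242 and 248 CPM of Cdk1, those of Malt1_WT 102, 96.9 and 97.4 and those of Malt1_PD 150.0, 136 and 141. With V87R Cdk1 reached 214, 214 and 217 CPM, and with L88D 210.3, 207 and 209.7 CPM. No vector library overlapped with a library of another group. Cdk1 fell by 2.54-fold in Malt1_WT (log2 fold change -1.34 ± 0.042, edgeR adjusted p = 3.9e-21) and by 1.76-fold in Malt1_PD (log2 fold change -0.81 ± 0.04, edgeR adjusted p = 4.1e-16). Its B-type cyclins fell further in Malt1_WT, with log2 fold changes of -1.96 ± 0.055 for Ccnb1 and -1.78 ± 0.059 for Ccnb2, though that difference between genes was not tested. Plk1, the polo-like kinase of mitotic entry and exit, stood at 133 ± 12.3 CPM in the vector and 28.4 ± 1.48 in Malt1_WT (n = 3), and its log2 fold change of -2.23 was the lowest of this group. In the spindle-pole kinase Aurka the change was -1.81, and in Aurkb, the kinase of the chromosomal passenger complex, -1.16. Cdkn3, a phosphatase that acts on CDKs, had the largest difference between Malt1_PD and Malt1_WT of all 44 members: 16.2 ± 1.29 CPM in the vector, 4.17 ± 0.851 in Malt1_WT and 9.98 ± 1.09 in Malt1_PD, a log2 fold change of 1.26 ± 0.14 (edgeR adjusted p = 6.1e-08). The phosphatases Cdc25b and Cdc25c, which activate CDK1, changed by -1.14 and -1.79 in Malt1_WT and by -0.87 and -1.18 in Malt1_PD. The centrosome kinase Nek2 fell in Malt1_WT (-1.18) and was not called in Malt1_V87R (-0.22, edgeR adjusted p = 0.062) or Malt1_L88D (-0.15, edgeR adjusted p = 0.18), though it was called in Malt1_V87R without Vector replicate 1 or Malt1_V87R replicate 2, with the replicate block, with upper-quartile scaling and with library totals without TMM.

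**Figure D4:**
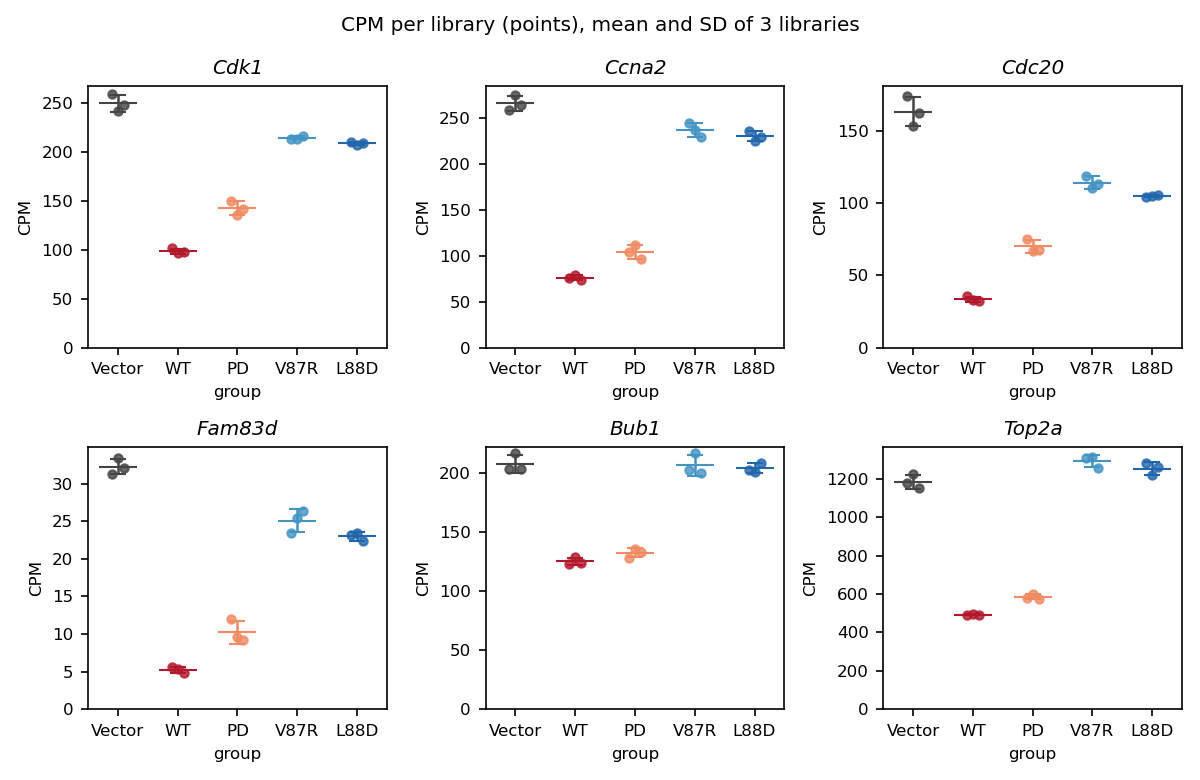
CPM of 6 mitotic genes in each library (points) of the 5 groups, with the mean and SD of 3 libraries. Cdk1, Ccna2, Cdc20 and Fam83d show the order Malt1_WT, Malt1_PD, substitution mutants, vector from low to high; for Bub1 the vector and substitution mutants overlap, and for Top2a every Malt1_V87R library is above the vector.

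All 5 tested kinesins fell in Malt1_WT (median -1.78) and in Malt1_PD (median -1.17), and all 5 also fell in Malt1_V87R and in Malt1_L88D, with medians of -0.25 and -0.33 (Cenpe was not called in Malt1_V87R without Malt1_V87R replicate 3). Cenpe (chr3:135212537-135273611, plus strand) encodes the kinetochore motor that carries chromosomes to the spindle equator. Levels of Cenpe were 170.0, 176 and 162 CPM in the vector, 48.4, 50.3 and 49.3 CPM in Malt1_WT and 72.8, 77.2 and 75.4 CPM in Malt1_PD. The Cenpe level was 153, 155 and 147 CPM in Malt1_V87R and 148, 139 and 144 CPM in Malt1_L88D. Vector and Malt1_WT libraries lay at the ends of the range with no overlap. The log2 fold change of Cenpe was -1.78 ± 0.046 in Malt1_WT (edgeR adjusted p = 5.8e-23) and -1.17 ± 0.043 in Malt1_PD (edgeR adjusted p = 5.8e-19).

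Kif23 (chr9:61915905-61946774, minus strand) encodes a motor of the central spindle that works in cytokinesis with Racgap1. Kif23 stood at 124, 124 and 128 CPM in the vector libraries, 42.2, 40.5 and 40.2 in Malt1_WT and 64.6, 71.9 and 62.4 in Malt1_PD. In Malt1_V87R it was at 104, 105 and 99.5 CPM, and in Malt1_L88D at 103, 94.0 and 97.1. Malt1_PD libraries lay between those of Malt1_WT and those of the other groups, without overlap. Kif23 changed by -1.61 ± 0.054 in Malt1_WT (edgeR adjusted p = 2.3e-20), and it was higher in Malt1_PD than in Malt1_WT by 0.69 ± 0.055 (edgeR adjusted p = 1.4e-10). Kif20a, also of the central spindle, changed by -2.20 in Malt1_WT, and its exons overlap those of Cdc23 on the opposite strand over 29.3% of its exon bases. The sources used here do not give the strand setting of the authors' counting, so part of the Kif20a count could belong to Cdc23. The microtubule depolymerase Kif2c changed by -2.07 and the chromosome-arm motor Kif4 by -1.50 in Malt1_WT. Kif4 shares 15.1% of its exon bases with Pdzd11 in the same way, and Ube2c and Ccna2 share 22.8% and 12.5% with Tnnc2 and Exosc9. Over all libraries Cdc23, Pdzd11 and Exosc9 had 14084, 13429 and 21376 counts, but Tnnc2 had 10 beside 36408 for Ube2c.

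The checkpoint and anaphase genes held both strong and weak responders. All 7 fell in Malt1_WT (median -1.37) and in Malt1_PD (median -0.95), while 4 of 7 fell in each substitution mutant. Bub1 (chr2:127801122-127831865, minus strand) encodes a checkpoint kinase at kinetochores and had the smallest change in Malt1_WT. The vector libraries had 203, 217 and 203 CPM of Bub1, those of Malt1_WT 123, 129 and 124 and those of Malt1_PD 128, 136 and 133. With V87R Bub1 reached 202, 217 and 200.3 CPM, and with L88D 202, 201 and 209 CPM. The libraries of Malt1_WT and Malt1_PD overlapped, and so did those of the vector and the substitution mutants. Bub1 changed by -0.73 ± 0.042 in Malt1_WT (edgeR adjusted p = 8.6e-15) and by -0.65 ± 0.042 in Malt1_PD (edgeR adjusted p = 1.3e-13). Between these constructs it differed by 0.08 (95% interval -0.01 to 0.17, edgeR adjusted p = 0.19).

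Ube2c (chr2:164769898-164778822, plus strand) encodes the ubiquitin-conjugating enzyme of the anaphase-promoting complex. Levels of Ube2c were 201, 189 and 191 CPM in the vector, 52.6, 53.9 and 49.8 CPM in Malt1_WT and 112, 91.1 and 98.3 CPM in Malt1_PD. The Ube2c level was 152, 142 and 161 CPM in Malt1_V87R and 152, 143 and 141 CPM in Malt1_L88D. Malt1_WT libraries were lowest, Malt1_PD libraries next, and the overlapping substitution mutants lay above them and below the vector. Ube2c changed by -1.90 ± 0.062 in Malt1_WT (edgeR adjusted p = 1.9e-18) and by -0.95 ± 0.058 in Malt1_PD (edgeR adjusted p = 8.7e-13). Cdc20, the activator of that complex and target of the checkpoint, had the largest changes of all members in both substitution mutants, -0.52 ± 0.05 in Malt1_V87R (edgeR adjusted p = 7.4e-09) and -0.64 ± 0.051 in Malt1_L88D (edgeR adjusted p = 1.1e-10). Its levels were 164 ± 10.2 CPM in the vector, 33.5 ± 1.81 in Malt1_WT and 70.2 ± 4.61 in Malt1_PD (n = 3). Pttg1, the securin that keeps separase inactive, changed by -1.20 in Malt1_WT and by -0.53 in Malt1_PD, the smallest change there. Of the remaining checkpoint genes, Bub1b changed by -1.75, Ttk by -1.37 and Mad2l1 by -1.10 in Malt1_WT. Ttk was higher in Malt1_PD than in Malt1_WT by 0.22 ± 0.077 (edgeR adjusted p = 0.042), and this call was lost under each left-out replicate of these groups, under DESeq2 and under every other setting tried except the replicate block.

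Of the 8 centromere, kinetochore and chromosomal passenger genes, all fell in Malt1_WT (median -1.72) and Malt1_PD (median -1.13). In Malt1_V87R 6 fell and in Malt1_L88D 5. Incenp (chr19:9872296-9899551, minus strand) encodes the scaffold of the chromosomal passenger complex. Incenp stood at 217, 202 and 197 CPM in the vector libraries, 81.2, 76.3 and 82.2 in Malt1_WT and 123, 109 and 111 in Malt1_PD. In Malt1_V87R it was at 176, 165 and 175 CPM, and in Malt1_L88D at 162, 158 and 164. Each group was tight, with Malt1_WT lowest and the vector highest. Incenp changed by -1.36 ± 0.05 in Malt1_WT (edgeR adjusted p = 2.0e-19) and by -0.85 ± 0.048 in Malt1_PD (edgeR adjusted p = 9.7e-15).

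Cenpa (chr5:30666777-30674830, plus strand) encodes the histone H3 variant that marks centromeres. The vector libraries had 174, 176 and 166 CPM of Cenpa, those of Malt1_WT 48.7, 45.4 and 46.7 and those of Malt1_PD 87.6, 75.8 and 79.2. With V87R Cenpa reached 147, 139 and 136 CPM, and with L88D 135, 135 and 142 CPM. Here too the vector libraries did not overlap with Malt1_WT or Malt1_PD. The change of Cenpa was -1.87 ± 0.052 in Malt1_WT (edgeR adjusted p = 3.7e-22) and -1.09 ± 0.049 in Malt1_PD (edgeR adjusted p = 5.3e-17). Birc5 (survivin) and Cdca8 (borealin), partners of Incenp, changed by -1.74 and -1.35 in Malt1_WT. The kinetochore protein gene Cenpf changed by -2.35 ± 0.086 in Malt1_WT and -1.63 ± 0.079 in Malt1_PD. The NDC80 complex, which grips spindle microtubules, was represented by Ndc80 (-1.71), Nuf2 (-1.78) and Spc25 (-1.21 in Malt1_WT). Nuf2 was almost as low in Malt1_PD as in Malt1_WT, at 5.98 ± 0.999 against 5.14 ± 0.508 CPM, and the difference of 0.21 (95% interval -0.09 to 0.50) was not called (edgeR adjusted p = 0.33).

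The spindle and cytokinesis genes fell in 10 of 10 cases in Malt1_WT (median -1.58) and Malt1_PD (median -1.10), and in 9 of 10 in each substitution mutant, with Ect2 the exception in both. Fam83d (chr2:158768093-158786637, plus strand), which encodes a protein that brings casein kinase 1 to the spindle, had the largest change of all members in Malt1_WT. Levels of Fam83d were 31.3, 33.4 and 32.1 CPM in the vector, 5.61, 5.35 and 4.81 CPM in Malt1_WT and 12.0, 9.60 and 9.14 CPM in Malt1_PD. The Fam83d level was 23.4, 25.4 and 26.4 CPM in Malt1_V87R and 23.2, 23.4 and 22.3 CPM in Malt1_L88D. No library of Malt1_WT reached the level of any Malt1_PD library. Fam83d was 6.13-fold lower in Malt1_WT than in the vector (log2 fold change -2.61 ± 0.10, edgeR adjusted p = 4.2e-19) and 3.14-fold lower in Malt1_PD (log2 fold change -1.65 ± 0.086, edgeR adjusted p = 1.1e-15).

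Tpx2 (chr2:152847964-152895321, plus strand) encodes the spindle assembly factor that activates Aurora A. Tpx2 stood at 372, 363 and 362 CPM in the vector libraries, 145, 147 and 146 in Malt1_WT and 216, 202 and 200.5 in Malt1_PD. In Malt1_V87R it was at 335, 330.1 and 310.0 CPM, and in Malt1_L88D at 318, 300.1 and 307. Its vector libraries lay above all others. Tpx2 changed by -1.32 ± 0.04 in Malt1_WT (edgeR adjusted p = 2.5e-21) and by -0.83 ± 0.039 in Malt1_PD (edgeR adjusted p = 1.6e-16). Anln (chr9:22332012-22389188, minus strand) encodes anillin, which holds the contractile ring together. The vector libraries had 320.2, 355 and 325 CPM of Anln, those of Malt1_WT 117, 121 and 109 and those of Malt1_PD 166, 183 and 167. With V87R Anln reached 303, 307 and 286 CPM, and with L88D 297, 288 and 287 CPM. Its Malt1_WT libraries were the lowest of the 5 groups, followed by those of Malt1_PD. Anln changed by -1.53 ± 0.048 in Malt1_WT (edgeR adjusted p = 5.7e-21) and by -0.96 ± 0.046 in Malt1_PD (edgeR adjusted p = 2.7e-16). The microtubule-binding genes of the spindle Hmmr, Prc1 and Nusap1 changed by -2.16, -2.05 and -1.99 in Malt1_WT and by -1.19, -1.12 and -1.12 in Malt1_PD. Ect2 and Racgap1, which activate RhoA at the division site, changed by -1.53 and -1.61 in Malt1_WT.

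The last 3 genes are not spindle parts. Mki67 (chr7:135689784-135716361, minus strand) encodes the coat protein of mitotic chromosomes used as a proliferation marker. Levels of Mki67 were 229, 228 and 219 CPM in the vector, 49.1, 49.3 and 52.3 CPM in Malt1_WT and 81.1, 85.3 and 75.7 CPM in Malt1_PD. The Mki67 level was 195, 181 and 179 CPM in Malt1_V87R and 183, 166 and 179 CPM in Malt1_L88D. The Malt1_WT and Malt1_PD libraries were both far below the rest and apart from each other. Mki67 changed by -2.17 ± 0.051 in Malt1_WT (edgeR adjusted p = 9.3e-24) and by -1.48 ± 0.049 in Malt1_PD (edgeR adjusted p = 3.4e-20).

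Top2a (chr11:98992943-99024189, minus strand) encodes the topoisomerase that untangles sister chromatids and was the most abundant member per kilobase of exon, at 132 CPM per kb in the vector, ahead of Cdc20 at 87.6. Top2a stood at 1177, 1227 and 1154 CPM in the vector libraries, 493, 495 and 489 in Malt1_WT and 581, 602 and 576 in Malt1_PD. In Malt1_V87R it was at 1307, 1313 and 1259 CPM, and in Malt1_L88D at 1283, 1219.5 and 1261. Every Malt1_V87R library was above the vector libraries, those of Malt1_L88D overlapped with the vector, and Malt1_WT and Malt1_PD were far below. Top2a fell in Malt1_WT by 2.41-fold (log2 fold change -1.27 ± 0.035, edgeR adjusted p = 2.3e-22) and in Malt1_PD by 2.02-fold (log2 fold change -1.02 ± 0.034, edgeR adjusted p = 7.0e-20). In Malt1_V87R it was slightly higher than in the vector, by 0.12 ± 0.034 (edgeR adjusted p = 0.013), the only rise among the members, and this call was lost without Vector replicate 3, Malt1_V87R replicate 1 or Malt1_V87R replicate 2. Foxm1, which encodes a transcription factor that activates many of these genes, changed by -1.57 in Malt1_WT and -1.14 in Malt1_PD, with -0.28 in Malt1_L88D. In Malt1_V87R its change was -0.15 (edgeR adjusted p = 0.034), a call that was lost without Vector replicate 1 or 3, without Malt1_V87R replicate 2 or 3, without the filter and with only the 6 libraries.

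The lines with substitutions at the neighbouring residues were then compared with each other. None of the 44 members was called by edgeR, as none of the 14571 genes was (background 0.00%), and DESeq2 and limma-voom called 0 members too. At an unadjusted p under 0.05, 7 members and 852 genes (5.85%) differed. The median log2 fold change, Malt1_L88D minus Malt1_V87R, was -0.06, and the estimate was negative for 40 of 44 members and for 52.1% of all genes. The 95% intervals of all 44 lay within -0.33 to 0.26, so larger differences are outside them. Ndc80 had the largest difference, -0.22 (95% interval -0.32 to -0.12, edgeR adjusted p = 0.42). Fitted on the 6 libraries of these groups alone it was called, with an edgeR adjusted p of 0.033, in a fit that called 14 of all genes lower and 11 higher. Ndc80 was at 68.2, 68.2 and 71.9 CPM in Malt1_V87R and 58.0, 59.6 and 61.2 CPM in Malt1_L88D, and at 80.7, 75.7 and 77.5 CPM in the vector.

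**Figure D5:**
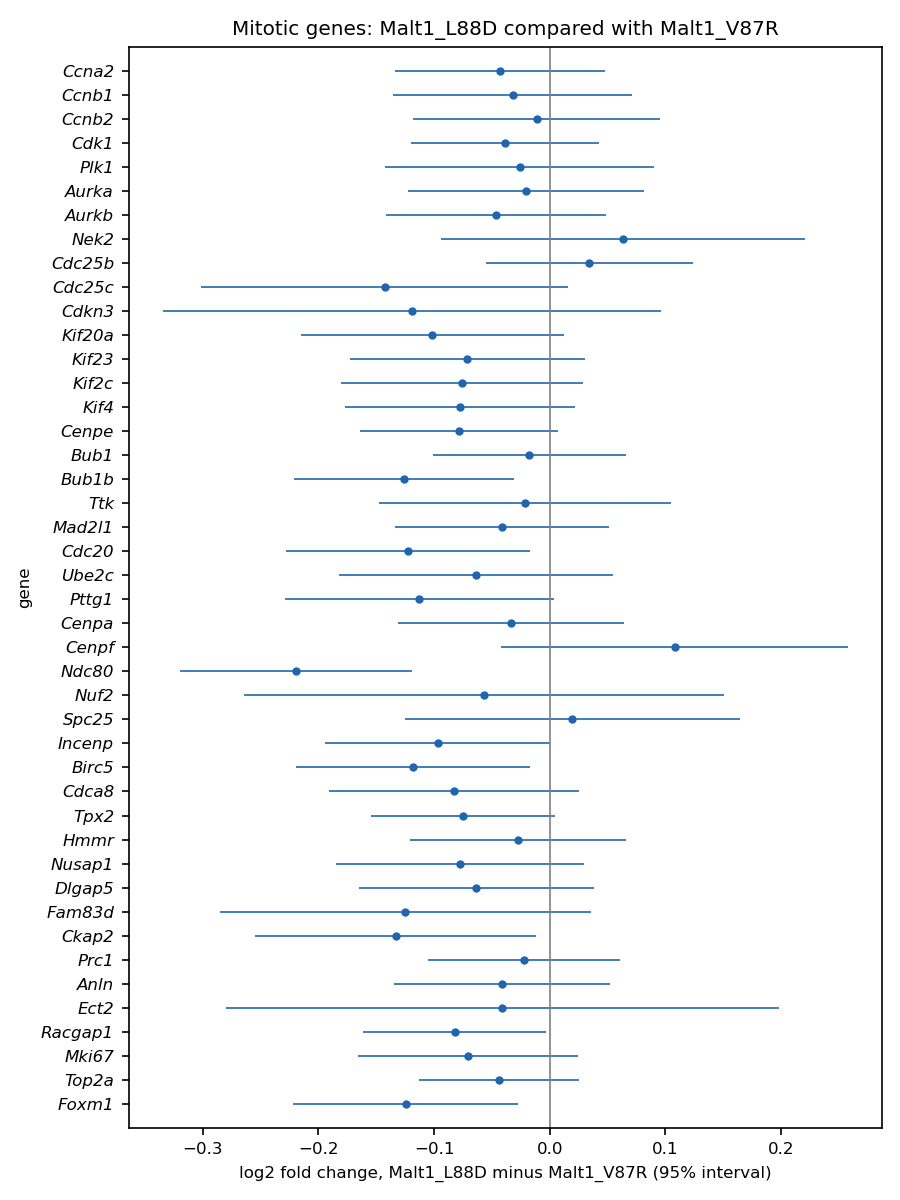
Log2 fold change of Malt1_L88D minus Malt1_V87R (horizontal axis, point with 95% interval) for each of the 44 tested mitotic genes (vertical axis). The estimates lie between the limits of -0.33 and 0.26 with their intervals, and 40 of 44 are below 0.

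Other genes of the same machinery were read from lists of each complex. Beside the counts of each list, 27.7% of all genes tested were called lower in Malt1_WT than in the vector. The other mitotic kinesins fell in Malt1_WT in 7 of 7 cases (median -1.69), with Kif22 at -1.97, Kif20b at -1.69 and Kifc1 at -1.91. Kinesins of cargo transport had no common direction. Of 17 tested, 5 fell and 5 rose (all genes called lower: 27.7%, higher: 27.2%), with a median of 0.00. Kif3c, Klc1 and Kif21a changed by 0.50, -0.25 and -0.51. All 19 other kinetochore and checkpoint genes fell in Malt1_WT (median -0.93), among them the cohesin protectors Sgo1 (-1.34) and Sgo2a (-2.11). So did 17 of 17 genes of the constitutive centromere and its loading factors (median -0.85), among them Cenpn (-1.09) and Cenpi (-0.98), 8 of 8 condensin subunits (median -0.92), among them Ncapd2 (-1.96) and Smc4 (-1.09), and 13 of 13 tested spindle and cytokinesis genes outside the members (median -1.41). Kif18a was counted with both the mitotic kinesins and the kinetochore genes, and Kif18b with both the mitotic kinesins and the spindle genes.

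In other complexes some of the genes were not called. Of all genes tested, 27.7% were called lower and 27.2% higher in Malt1_WT than in the vector. Of 17 genes of the anaphase-promoting complex and its regulators, 13 fell and none rose in Malt1_WT (median -0.36). Its inhibitor Fbxo5 changed by -2.35, and the core subunit Cdc27 was not called at 0.09. Of 12 cohesin and separase genes 7 fell (median -0.49), with separase itself, Espl1, at -1.71 and the core subunit Stag2 not called at -0.17 (called without Vector replicate 1). Of 9 regulators of mitotic entry 8 fell (median -0.59), among them Gtse1 (-1.42) and Wee1 (-1.28), the kinase that restrains CDK1. Of 13 genes of the DREAM and MYB-MuvB complexes 8 fell and 1 rose (median -0.31), with Mybl2, which encodes B-MYB, at -0.58. Lin37, a core subunit, was not called at -0.15.

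DNA replication and S-phase genes fell in Malt1_WT in 34 of 36 cases (median -0.72) and in Malt1_PD in 36 of 36 (median -0.68). Of all genes, 27.7% and 22.0% were called lower there. Rrm2, a subunit of ribonucleotide reductase, changed by -1.03 in Malt1_WT and -0.97 in Malt1_PD. Between Malt1_PD and Malt1_WT, 2 S-phase genes were higher and 5 lower (all genes called lower: 10.7%), with a median of 0.04, beside 42 higher and none lower of the 44 mitotic members, with a median of 0.59. The 2 medians were not compared by a test. In Malt1_L88D 18 of 36 S-phase genes fell (all genes called lower: 8.43%) and in Malt1_V87R 5 (4.70%), with medians of -0.14 and -0.06.

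Members with and without TTTGAA in the promoter window both fell. Other forms of the CHR were not searched, so the 10 members without TTTGAA are not shown to lack a CHR. In Malt1_WT the median log2 fold change was -1.77 for the 26 tested members with TTTGAA and -1.47 for the 10 without it. Of those 10, Ccnb1, Nusap1 and Birc5 changed by -1.96, -1.99 and -1.74, and Bub1 changed least, by -0.73. For Birc5, Cdc25b and Mad2l1, also among the 10, the first bases from the start were not found in a GENCODE transcript. Their windows may therefore be misplaced. The ranges of both sets overlapped, from -2.61 to -1.21 and from -1.99 to -0.73, and the difference was not tested.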

How the data were processed

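RNA of 15 libraries (5 groups of 3) was sequenced from stranded libraries as paired ends, per the labels' protocols. The tools listed in the submitters' processing notes are STAR 2.7.3a, featureCounts 1.6.3 and Trim Galore 0.6.0, and the build is GRCm38.p6. The authors deposited unnormalised read counts per gene symbol, all whole numbers. The sources used here do not give the strand setting, the annotation release or the handling of multiply mapped reads.

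The test was edgeR 4.0.16 (R 4.3.3) with TMM scaling, filterByExpr (14571 genes kept), a robust quasi-likelihood model over every library, 10 two-sided comparisons, Benjamini-Hochberg adjustment and a threshold of 0.05. The common biological coefficient of variation was 4.61%. CPM is counts divided by the scaled total, times 1e+06. Positions come from GENCODE and promoters from RefSeq. Alternatives were other scalings, no filter, DESeq2 1.42.0, limma 3.58.1 (voom), a replicate block, fits of 6 libraries and leaving out each replicate. The edgeR test was tested on simulated data.

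The members, roles and lists were chosen with earlier results of these data known. Every library's value is given for the 2 members of highest mean CPM in each role group and for those with the largest and smallest change in Malt1_WT. From each list, up to 3 members of smallest adjusted p in Malt1_WT and up to 2 uncalled ones could be named.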

Additional observations from a re-analysis of the deposited data

How the results depend on the processing

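Under RLE, upper-quartile and unscaled totals, without the filter, with DESeq2, limma-voom, a replicate block and fits of only the 6 libraries compared, the number of members called stayed at 44 lower in Malt1_WT and in Malt1_PD against the vector, and ranged from 33 to 36 lower in Malt1_V87R and from 35 to 38 in Malt1_L88D. For Malt1_PD against Malt1_WT 41 to 42 were higher. Leaving out each replicate in turn gave 30 to 34 members lower in Malt1_V87R and 34 to 35 in Malt1_L88D. The number higher against the vector was 0 to 1 for each of these mutants: Top2a was not called in Malt1_V87R without Vector replicate 3, Malt1_V87R replicate 1 or Malt1_V87R replicate 2, and Top2a was called higher in Malt1_L88D without Vector replicate 2. With only the 6 libraries of Malt1_L88D and Malt1_V87R, 1 member was lower. Libraries numbered 1 and 2 deviated with their namesakes among the vector, Malt1_WT and Malt1_PD (r from 0.28 to 0.52), but those numbered 3 did not (-0.025 to -0.0036). No comparison had all 3 pairs over 0.1, and the numbers were not taken as pairs. In Malt1_WT or Malt1_PD against the vector 4 of 6 libraries correlated best with their own number. Across those groups number 1 ran against number 2 (r from -0.52 to -0.25). Malt1_V87R replicate 3 went with replicate 1 of those groups (r from 0.24 to 0.38). Deviations were centred within each group of 3, so the rule on 3 pairs can miss an effect shared by 2 numbers. Such an effect was not tested. With the replicate block, 44 members were lower than in the vector for Malt1_WT and for Malt1_PD, and 36 and 37 for Malt1_V87R and Malt1_L88D. The sign turned, in results that were not called, for Bub1 without Vector replicate 2 or Malt1_V87R replicates 1 or 3, with log2 fold changes against the vector that ranged over left-out replicates from -0.043 to 0.017 in Malt1_V87R and from -0.038 to 0.0052 in Malt1_L88D. It also turned in Malt1_WT against the vector for Ccne2 (-0.078 to 0.057) and Kif16b (-0.10 to 0.045). Cdkn3 was not called in Malt1_L88D against Malt1_PD without Malt1_PD replicate 2 (43 to 44 members higher over left-out replicates). Of single-gene results, 42 lost their call under an alternative, 28 of them in a substitution mutant against the vector and 13 in Ttk, and 18 gained one. The causes were not tested, and a count of 0 allows up to 3 counts.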

Other observations

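Genes outside all lists whose log2 CPM followed the mean of the members most closely over the 15 libraries, among 9624 genes with a mean of at least 5 CPM, were Cdca3, Spag5, Kpna2, Prr11, Hmgb2, Knstrn, Hmgb1, Tln2, Fads2 and Abcg1, with Pearson r from 0.997 to 0.993. The libraries fall into 5 groups with different levels, so these values describe the group means more than libraries within a group. Cdca3, which encodes a trigger of mitotic entry, stood at 115 ± 8.51 CPM in the vector libraries and 31.6 ± 1.45 in Malt1_WT (n = 3). Spag5, a spindle protein gene, stood at 81.3 ± 6.28 CPM in the vector and 26.9 ± 0.577 in Malt1_WT. Kpna2, an importin, stood at 525 ± 10.4 CPM in the vector and 228 ± 5.04 in Malt1_WT. The last 3 of the 10 are not known as mitotic genes: talin-2 (Tln2) stood at 155 ± 2.42 CPM in the vector and 81.6 ± 1.06 in Malt1_WT, the fatty acid desaturase gene Fads2 at 75.1 ± 1.54 and 28.0 ± 1.32, and the cholesterol transporter gene Abcg1 at 134 ± 1.35 and 54.4 ± 2.19.

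Kif11 (chr19:37376403-37421859 in GRCm38.p6) had 2 counts in 15 libraries although it is required for a bipolar spindle. Near it on chromosome 19, March5 had 1 count and Hhex 0, while Ide had 765, Cpeb3 1191 and Exoc6 7916. The centriole kinase gene Plk4, which was in a list of further spindle genes, had 0 counts in all libraries. No test was made of why these genes are at or near 0.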
